A study of Homo sapiens with 3 samples.

Results

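The 9 genes described here are CPS1, ASS1, ASL, ARG1, ARG2, SLC25A15, NAGS, ODC1 and CAD, which encode enzymes and a carrier of the urea cycle, the arginases and the entry enzymes of polyamine and pyrimidine synthesis. They were taken by symbol from the 46427 genes of the count table, and all 9 were found. CPS1 was chosen by its read counts, which were much higher in the adriamycin-resistant library than in the parental one, so its values are a description. The other 8 genes were added for their place in the pathway.

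The urea cycle turns ammonia into urea, in the liver above all. CPS1 makes carbamoyl phosphate from ammonia inside the mitochondrion, and OTC joins it to ornithine to give citrulline. ASS1 and ASL convert citrulline to arginine in the cytosol, and arginase splits arginine into urea and ornithine. Outside the liver most cells hold only parts of the cycle. Ornithine also feeds polyamine synthesis through ODC1, and carbamoyl phosphate made in the cytosol by CAD feeds pyrimidine synthesis.

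RNA-seq was performed on MDA-MB-468 (MM468) cells, an epithelial line from a triple-negative breast cancer, with 1 library from each of 3 lines, all labelled WT for genotype and grown in the same medium. Parental MM468 cells were untreated. Adriamycin-resistant cells were the survivors of exposure to adriamycin (doxorubicin, an anthracycline that acts on topoisomerase II and DNA) at 10 to 140 nM, and paclitaxel-resistant cells those of exposure to paclitaxel (a drug that stabilises microtubules) at 2 to 320 nM. Whether a resistant line was 1 clone or a pool, and whether the drug was present at harvest, is not given in the sources used here.

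The counts summed to between 32704885 and 47567927 per library. All 10 breast epithelial markers, KRT8, EPCAM and EGFR among them, had 10 or more counts in each library. Of the receptors whose absence defines a triple-negative cancer, PGR had 0, 0 and 7 counts in parental, adriamycin-resistant and paclitaxel-resistant cells, ESR1 stood at 1.45 to 2.55 TPM and ERBB2 at 28.1 to 34.6 TPM. These are bulk libraries, in which more cells with a transcript and more transcript per cell cannot be told apart. With 1 library per line there is no replicate check, no SD and no test between lines. A gene is called higher or lower when its fold change is at least 2, and each fold change carries a 95% interval from the exact binomial method, which covers counting error only and says nothing of the spread between cultures. The program that made the counts is not given in the sources used here, and if they were derived from coverage, the intervals and the limit set by a count of 0 are approximate. Levels within a gene are CPM, counts scaled to a common library size by the TMM method, and levels between genes are the TPM values that the authors deposited, which allow for gene length.

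CPS1 (NCBI Gene ID 1373) lies on the plus strand of chromosome 2 from 210477682 to 210679107 in the GENCODE annotation of GRCh38, the build that the labels name, from which the spans of the other members are also given. RefSeq start windows of GRCh38.p14 were examined for all 9 genes, as the 250 bases before each start, 13 windows in all. These sequences are shown because the start windows differed in CpG content between CPS1 and ARG1 on one side and the other 7 genes on the other. Of the CPS1 windows, the one that overlaps no exon of the GENCODE annotation is shown. The stretches printed are the parts of these windows before the first exon base. They are given 5′ to 3′ on the plus strand, in lower case with each CpG in capitals. They come from chr2:210593105-210593354 (CPS1), chr6:131572976-131573143 (ARG1) and chr14:67619670-67619797 (ARG2).
CPS1: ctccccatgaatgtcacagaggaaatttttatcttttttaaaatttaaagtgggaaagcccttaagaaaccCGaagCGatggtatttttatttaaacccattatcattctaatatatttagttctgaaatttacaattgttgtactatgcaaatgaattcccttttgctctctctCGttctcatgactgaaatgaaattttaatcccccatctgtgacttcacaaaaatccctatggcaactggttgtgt
ARG1: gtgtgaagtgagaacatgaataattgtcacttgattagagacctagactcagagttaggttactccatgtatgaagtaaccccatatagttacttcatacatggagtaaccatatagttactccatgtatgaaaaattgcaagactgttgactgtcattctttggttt
ARG2: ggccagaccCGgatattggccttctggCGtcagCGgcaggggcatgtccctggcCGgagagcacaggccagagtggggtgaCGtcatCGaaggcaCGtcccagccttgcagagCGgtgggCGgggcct

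The 3 windows of CPS1 in the table held 1, 3 and 3 CpGs, and the window of ARG1 held 1. Windows of the other 7 genes held from 13 CpGs, in NAGS, to 38, in the downstream window of ODC1. Over all 35116 windows of this length the median was 11, and 29.3% of windows held 3 CpGs or fewer. The letters TATAAA, searched on both strands, were found in the ARG1 window alone among the 13 and in 10.7% of all windows. The printed ARG1 stretch is shorter than its window and holds 0 CpGs and no TATAAA. The printed ARG2 stretch holds 9 of the 27 CpGs of its window. The CPS1 window printed lies inside the gene, before an internal start at 210593355, and the other CPS1 windows precede starts at 210477685 and 210519718. Other annotated starts were not examined here. Reads counted per gene do not tell which start of CPS1 was used.

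CPS1 had 8 counts in parental MM468 cells, 1333 in adriamycin-resistant cells and 263 in paclitaxel-resistant cells. These correspond to 0.258, 29.4 and 5.50 CPM. Both resistant lines were thus above the parental line, and the adriamycin-resistant line was the highest. The counts in adriamycin-resistant cells were 113-fold those of parental cells after scaling (95% interval 57.6 to 264). In paclitaxel-resistant cells the fold change was 21.1 (10.7 to 49.9). The width of both intervals comes from the 8 parental counts. Between the resistant lines, where both counts are large, CPS1 was 5.34-fold higher in adriamycin-resistant cells (4.68 to 6.12).

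By TPM, CPS1 went from 0.0799 in parental to 10.2 in adriamycin-resistant and 2.49 in paclitaxel-resistant cells. Its rank among 19672 protein-coding genes was 13898 in parental cells, 8474 in adriamycin-resistant cells and 11565 in paclitaxel-resistant cells. Even at its highest, in adriamycin-resistant cells, CPS1 stayed below ASS1, ASL, ARG2, SLC25A15, ODC1 and CAD on the TPM scale and above NAGS, at 0.877 TPM. There ASS1 stood at 499 TPM and CAD, which makes carbamoyl phosphate in the cytosol, at 105 TPM.

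Of the other members, ARG1 had 0 counts in every library and could not be compared, so 8 of the 9 genes passed the minimum of 10 counts in a library of each comparison. In adriamycin-resistant against parental cells, 1 of these 8 was at least 2-fold higher, CPS1, and 0 were at least 2-fold lower. The background was 11.0% higher and 11.2% lower among all 17950 genes compared. This contrast chose CPS1, so nothing is read from that count. Of the same 8 genes in paclitaxel-resistant against parental cells, 1 was higher, again CPS1, and 1 lower, ARG2, beside a background of 20.5% higher and 13.5% lower. In adriamycin-resistant against paclitaxel-resistant cells, 2 of 8 were higher, CPS1 and ARG2, and 0 lower, beside 13.3% and 20.0%. CPS1 was chosen with its values in all 3 libraries known, so its calls in these contrasts are a description too. The comparisons share libraries in pairs and are not independent of each other.

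The split of all genes moved with the scaling. With library size only, 71.2% of the genes changed at least 2-fold between paclitaxel-resistant and parental cells were higher, instead of 60.4%, and the median over all genes compared was 0.30 on the log2 scale instead of 0.07. Between adriamycin-resistant and paclitaxel-resistant cells 39.9% of the genes changed were higher with TMM and 28.6% with library size only. The calls for CPS1 and ARG2 were the same under library size only, DESeq2 size factors and TMM factors of the 2 libraries compared.

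**Figure D1:**
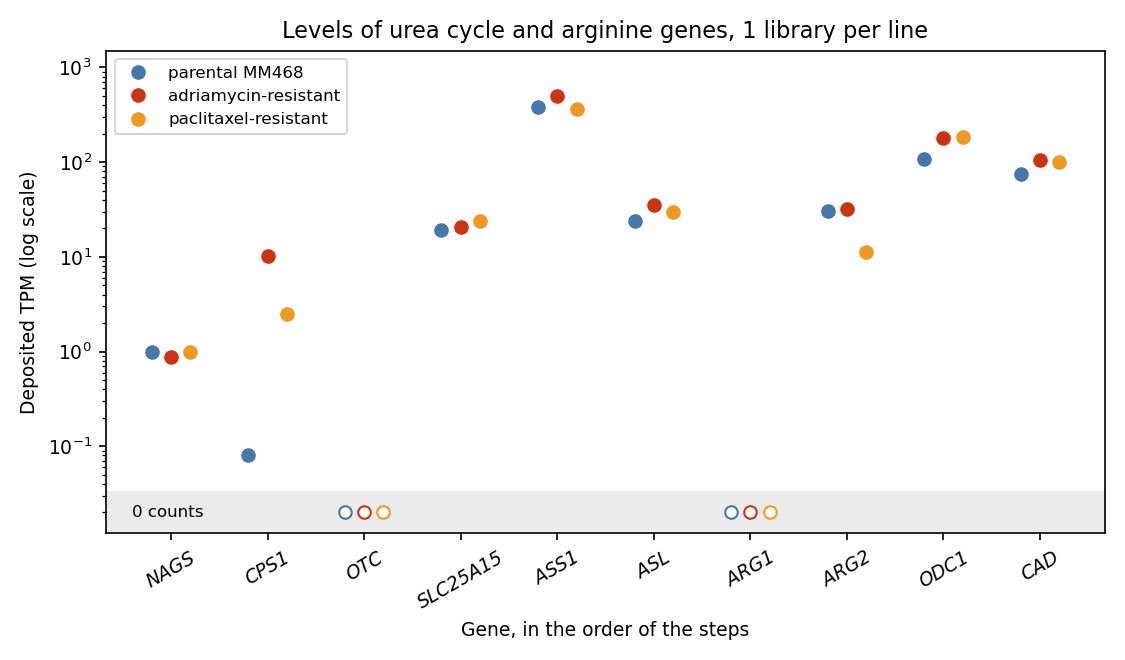
Deposited TPM (log scale) of the urea cycle and arginine genes in the order of the steps, with 1 point per library and open circles in the grey band for 0 counts; OTC is added as the missing step. CPS1 rises from 0.0799 TPM in parental to 10.2 TPM in adriamycin-resistant cells, while OTC and ARG1 have 0 counts in all 3 lines and ASS1 is the highest gene in each.

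NAGS (chromosome 17, 44004546 to 44009063, plus strand) makes N-acetylglutamate, the activator that CPS1 requires. It had 31 counts in parental, 42 in adriamycin-resistant and 38 in paclitaxel-resistant cells, or 1.00, 0.926 and 0.795 CPM. The levels lay close together, and the intervals of all 3 fold changes included 1. Against parental cells the interval ran from 0.568 to 1.52 in adriamycin-resistant cells and from 0.482 to 1.32 in paclitaxel-resistant cells. A 2-fold rise of NAGS would thus lie outside both intervals, as far as counting error goes.

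OTC, the enzyme that uses the carbamoyl phosphate of CPS1 inside the mitochondrion, is no member and was looked at because it is the next step. OTC had 0 counts in all 3 libraries, as did ARG1 (chromosome 6, 131573144 to 131584332, plus strand), the cytosolic arginase of the liver. A count of 0 allows up to 3 counts, which is 0.0968 CPM in parental, 0.0661 in adriamycin-resistant and 0.0627 in paclitaxel-resistant cells. CPS1 in adriamycin-resistant cells was far above this limit. RNA of CPS1 was therefore counted in lines in which RNA of OTC and ARG1 was not detectable at this depth.

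SLC25A15 (chromosome 13, 40789412 to 40810111, plus strand) carries ornithine and citrulline across the inner mitochondrial membrane. Its counts were 1081, 1763 and 1654 in parental, adriamycin-resistant and paclitaxel-resistant cells, which gave 34.9, 38.9 and 34.6 CPM. It was the steadiest of the well-counted members, at 1.11-fold (1.03 to 1.20) the parental level in adriamycin-resistant cells and 0.992-fold (0.918 to 1.07) in paclitaxel-resistant cells. SLC25A13, the mitochondrial aspartate-glutamate carrier that supplies the aspartate for ASS1, stood at 53.1, 66.8 and 56.2 CPM in the same order.

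ASS1 (chromosome 9, 130444929 to 130501274, plus strand), which joins citrulline and aspartate, was the most abundant member by TPM in each library, at 379 in parental, 499 in adriamycin-resistant and 362 in paclitaxel-resistant cells. It ranked between 219 and 318 among protein-coding genes. Its counts were 8627, 17306 and 10250 in that order. Adriamycin-resistant cells were the highest, at 1.37-fold the parental CPM (1.34 to 1.41). Paclitaxel-resistant cells were the lowest, at 0.770-fold (0.749 to 0.793). The size of this fall depended on the scaling. With library size only its log2 fold change was -0.15 instead of -0.38, outside the counting interval. Neither value reached 2-fold. The difference between the resistant lines was 1.78-fold (1.74 to 1.82), also under the threshold.

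ASL (chromosome 7, 66075798 to 66093558, plus strand) cleaves the product of ASS1 into arginine and fumarate. It had 777 counts in parental, 1782 in adriamycin-resistant and 1195 in paclitaxel-resistant cells, which gave 25.1, 39.3 and 25.0 CPM. Adriamycin-resistant cells were above both other lines, at 1.57-fold the parental level (1.44 to 1.71) and 1.57-fold the paclitaxel-resistant level (1.46 to 1.69). In paclitaxel-resistant against parental cells the interval ran from 0.910 to 1.09.

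ARG2 (chromosome 14, 67619798 to 67651720, plus strand), the mitochondrial arginase and the only arginase gene with counts here, had 868 counts in parental, 1366 in adriamycin-resistant and 393 in paclitaxel-resistant cells. The levels were 28.0, 30.1 and 8.22 CPM. Parental and adriamycin-resistant cells lay close together, with an interval of their ratio from 0.987 to 1.17, and paclitaxel-resistant cells were low. ARG2 was 3.41-fold lower in paclitaxel-resistant than in parental cells (3.02 to 3.85) and 3.66-fold higher in adriamycin-resistant than in paclitaxel-resistant cells (3.27 to 4.11). It was the member that separated the resistant lines most after CPS1.

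**Figure D2:**
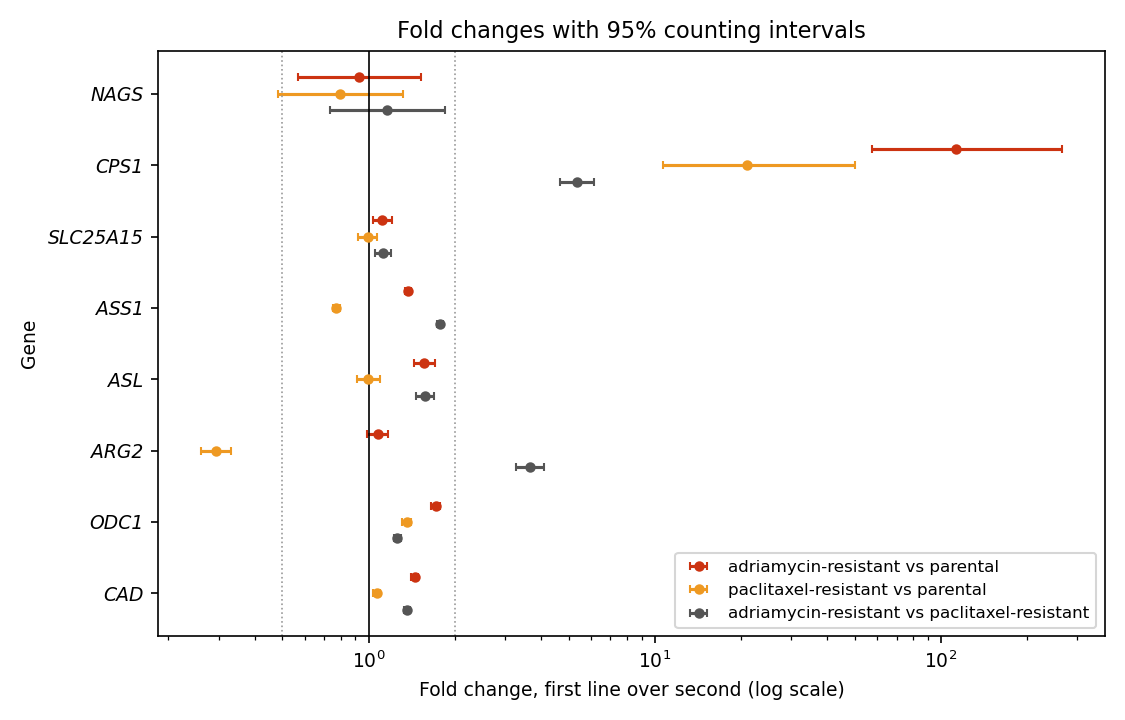
Fold change of the 8 members with counts in each of the 3 comparisons (first line over second, log scale), with bars for the exact binomial 95% interval of counting error, a solid line at 1 and dotted lines at 0.5 and 2. Only CPS1 and ARG2 lie beyond the dotted lines in any comparison, CPS1 at 113-fold and 21.1-fold over parental cells and ARG2 at 0.294-fold in paclitaxel-resistant cells.

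ODC1 (chromosome 2, 10439968 to 10448504, minus strand) converts ornithine to putrescine, the rate-limiting entry to polyamines. It had 3961 counts in parental, 9945 in adriamycin-resistant and 8304 in paclitaxel-resistant cells, or 128, 219 and 174 CPM. Both resistant lines were above the parental line, at 1.72-fold (1.65 to 1.78) and 1.36-fold (1.31 to 1.41), and neither reached 2-fold. The order of the resistant lines depended on the scale. By CPM adriamycin-resistant cells were 1.26-fold higher (1.23 to 1.30), and by deposited TPM they were slightly lower, at 178 against 184.

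CAD (chromosome 2, 27217390 to 27243943, plus strand) carries out the opening steps of pyrimidine synthesis and holds the cytosolic carbamoyl phosphate synthetase. Its counts were 7300, 15501 and 12027, which gave 235 CPM in parental, 342 in adriamycin-resistant and 252 in paclitaxel-resistant cells. The fold change over parental cells was 1.45 (1.41 to 1.49) in adriamycin-resistant cells and 1.07 (1.04 to 1.10) in paclitaxel-resistant cells. In paclitaxel-resistant cells the log2 value of CAD was 0.32 with library size only instead of 0.10, above that interval. CAD and CPS1 thus differed in the size of their change, with CAD under 2-fold in every comparison.

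The genes around the members were read from lists of related genes. The urea cycle list held 9 genes, of which 6 could be compared in each contrast. CPS1, chosen for its high counts, was the 1 gene called higher in each, beside 11.0%, 20.5% and 13.3% over all genes, and 0 were called lower, so nothing is read from these counts. In the arginine list of 17 genes, 13 could be compared. In adriamycin-resistant against parental cells 3 were higher (NOS3, AGMAT and SLC7A2) and 1 lower (DDAH1), beside 11.0% and 11.2% over all genes. In paclitaxel-resistant cells 2 were higher than parental (NOS3 and AGMAT) and 2 lower (ARG2 and DDAH2), beside 20.5% and 13.5%, so the paclitaxel-resistant counts stood near the background. The 3 higher in adriamycin-resistant cells lay above their background, but 13 genes are too few to read much from this.

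DDAH1, which degrades methylated arginines that inhibit nitric oxide synthases, stood at 132 CPM in parental, 29.4 in adriamycin-resistant and 162 in paclitaxel-resistant cells. The adriamycin-resistant line was low, 4.50-fold under the parental line (4.23 to 4.79), and the paclitaxel-resistant line was 1.23-fold the parental level (1.18 to 1.28). DDAH2, its paralog, was instead lowest in paclitaxel-resistant cells, at 114, 73.1 and 38.0 CPM in the same order, 2.99-fold lower than parental there (2.83 to 3.17).

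SLC7A2, a transporter of arginine and other cationic amino acids, had 119, 409 and 114 counts, or 3.84, 9.01 and 2.38 CPM. It was 2.35-fold higher in adriamycin-resistant than in parental cells (1.91 to 2.91) and 0.621-fold the parental level in paclitaxel-resistant cells (0.476 to 0.810). AGMAT, named for agmatine hydrolysis, had 19, 69 and 120 counts and was higher in both resistant lines, 2.47-fold (1.48 to 4.37) and 4.08-fold (2.51 to 7.04).

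Nitric oxide synthases, which make nitric oxide and citrulline from arginine, were near 0. NOS2 had 0 counts in all 3 libraries, and NOS1 had 0 in parental, 3 in adriamycin-resistant and 4 in paclitaxel-resistant cells. NOS3, the endothelial form, had 0 counts in parental, 17 in adriamycin-resistant and 19 in paclitaxel-resistant cells. Against the limit of 3 counts NOS3 was at least 3.87-fold higher in adriamycin-resistant and at least 4.11-fold higher in paclitaxel-resistant cells.

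Ornithine and proline are interconverted through a shared intermediate. Of 8 genes on this list 7 could be compared. In adriamycin-resistant against parental cells 0 were higher and 1 lower, beside 11.0% and 11.2% over all genes, with a median log2 fold change of 0.16 beside 0.03. In paclitaxel-resistant against parental cells 0 were higher and 3 lower, PRODH, PYCR1 and OAT, beside 20.5% and 13.5%, with a median of -0.88 beside 0.07.

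PRODH, the mitochondrial enzyme that begins proline breakdown, had 1074 counts in parental, 82 in adriamycin-resistant and 30 in paclitaxel-resistant cells. The parental library was far above both others. PRODH was 19.1-fold lower in adriamycin-resistant cells (15.3 to 24.3) and 54.9-fold lower in paclitaxel-resistant cells (38.4 to 82.2), the greatest fall of any gene on these lists with counts in all 3 libraries.

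PYCR1, which makes proline in the mitochondrion, stood at 73.6 CPM in parental, 87.6 in adriamycin-resistant and 18.7 in paclitaxel-resistant cells. It shared the low level in paclitaxel-resistant cells with ARG2, at 3.93-fold lower than parental (3.64 to 4.25). OAT, which links ornithine to the proline and glutamate intermediate, stood at 228, 137 and 72.3 CPM. It was 3.15-fold lower than parental in paclitaxel-resistant cells (3.03 to 3.28) and 1.66-fold lower in adriamycin-resistant cells (1.61 to 1.72).

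The polyamine list held 21 genes. All 21 were compared in adriamycin-resistant against parental cells, of which 1 was higher (MAT1A) and 2 lower (OAZ3 and SAT1), beside 11.0% and 11.2% over all genes. Paclitaxel-resistant cells allowed 20 to be compared with parental cells, with 0 higher and 2 lower (SAT1 and PAOX), beside 20.5% and 13.5%. The medians were 0.10 and -0.23 on the log2 scale, beside 0.03 and 0.07 over all genes compared. ODC1 was not among the genes called in either contrast.

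SAT1 acetylates spermidine and spermine for export or breakdown. It had 12448 counts in parental, 6165 in adriamycin-resistant and 3737 in paclitaxel-resistant cells, or 401, 136 and 78.2 CPM. Both resistant lines were low. SAT1 was 2.95-fold lower in adriamycin-resistant (2.87 to 3.05) and 5.14-fold lower in paclitaxel-resistant cells (4.95 to 5.33).

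MAT1A, the liver form of methionine adenosyltransferase, which makes the S-adenosylmethionine used in polyamine synthesis, was high in 1 line only. It had 5 counts in parental, 350 in adriamycin-resistant and 9 in paclitaxel-resistant cells. The fold change in adriamycin-resistant over parental cells was 47.0 (20.3 to 148), and that in paclitaxel-resistant cells 1.16 (0.351 to 4.43). The form used outside the liver, MAT2A, was more abundant throughout, at 264, 287 and 372 TPM against 0.0899, 4.58 and 0.130 TPM for MAT1A. AZIN2, an inhibitor of the ODC1 antizymes, had 45, 46 and 132 counts and was 2.72-fold lower in adriamycin-resistant than in paclitaxel-resistant cells (1.93 to 3.90).

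All 12 genes of the pyrimidine list were compared. In adriamycin-resistant against parental cells 0 were higher and 2 lower, CTPS1 and CMPK1, and in paclitaxel-resistant against parental cells 0 were higher and 1 lower, RRM1. The shares over all genes were 11.0% higher and 11.2% lower in the former and 20.5% and 13.5% in the latter. CTPS1, which makes CTP from UTP, stood at 267 CPM in parental, 92.1 in adriamycin-resistant and 176 in paclitaxel-resistant cells, 2.90-fold lower in adriamycin-resistant than in parental cells (2.79 to 3.01). CMPK1, which phosphorylates UMP and CMP, was 2.36-fold lower there (2.28 to 2.45). RRM1, the large subunit of ribonucleotide reductase, was 2.40-fold lower in paclitaxel-resistant than in parental cells (2.30 to 2.51).

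Glutamine and glutamate supply nitrogen and ammonia to these routes. The 13 genes of this list were all compared. In adriamycin-resistant against parental cells 0 were higher and 1 lower (GPT), beside 11.0% and 11.2% over all genes, with a median log2 fold change of -0.25 beside 0.03. In paclitaxel-resistant against parental cells 0 were higher and 7 lower, beside 20.5% and 13.5%, with a median of -1.07 beside 0.07. The 7 were GLS2, GLUL, GLUD1, GLUD2, GOT1, SLC1A5 and SLC25A12. This count depended on the scale. From parental to paclitaxel-resistant cells, deposited TPM fell by less than 2-fold for GLS2 (4.43 to 2.29), GLUD2 (3.06 to 1.83) and SLC25A12 (17.3 to 10.2). By TPM, GLUL, GLUD1, GOT1 and SLC1A5 were still at least 2-fold lower. GLUD1 and GLUD2 are near-identical copies, and reads could have been split between them.

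GLUL, glutamine synthetase, which binds ammonia to glutamate, had 12726 counts in parental, 9661 in adriamycin-resistant and 2626 in paclitaxel-resistant cells. The levels were 410, 213 and 54.9 CPM, with the paclitaxel-resistant line lowest. GLUL was 7.47-fold lower there than in parental cells (7.17 to 7.80) and 1.93-fold lower in adriamycin-resistant cells (1.88 to 1.98). SLC1A5, a glutamine importer, was 3.52-fold lower in paclitaxel-resistant cells (3.41 to 3.63), and GOT1, the cytosolic aspartate aminotransferase, 3.16-fold lower (2.96 to 3.37). GLUD1, which releases ammonia from glutamate in the mitochondrion, was 3.11-fold lower (2.97 to 3.26). GLUD2 had few counts beside it, 113 against 5456 in parental and 83 against 2706 in paclitaxel-resistant cells. How reads shared by both genes were counted is not given.

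Over the 7 lists together 75 of 89 genes were compared between the resistant lines. In adriamycin-resistant cells 14 were higher and 7 lower, beside 13.3% higher and 20.0% lower over all genes, and with TPM and a pseudocount of 0.1 the counts were 10 and 10. The list genes had a median log2 fold change of 0.34 beside -0.07 over all genes compared. ARG2 and SLC7A2 were higher and DDAH1 and SLC7A7 lower on the arginine list, PYCR1 and PRODH higher on the ornithine and proline list, and PAOX and MAT1A higher and AZIN2 lower on the polyamine list. PYCR1 was 4.68-fold higher in adriamycin-resistant cells (4.35 to 5.04) and MAT1A 40.3-fold (21.3 to 90.4). RRM1 was higher on the pyrimidine list, and on the glutamine list 6 genes were higher, GLUL among them at 3.88-fold (3.71 to 4.05).

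**Figure D3:**
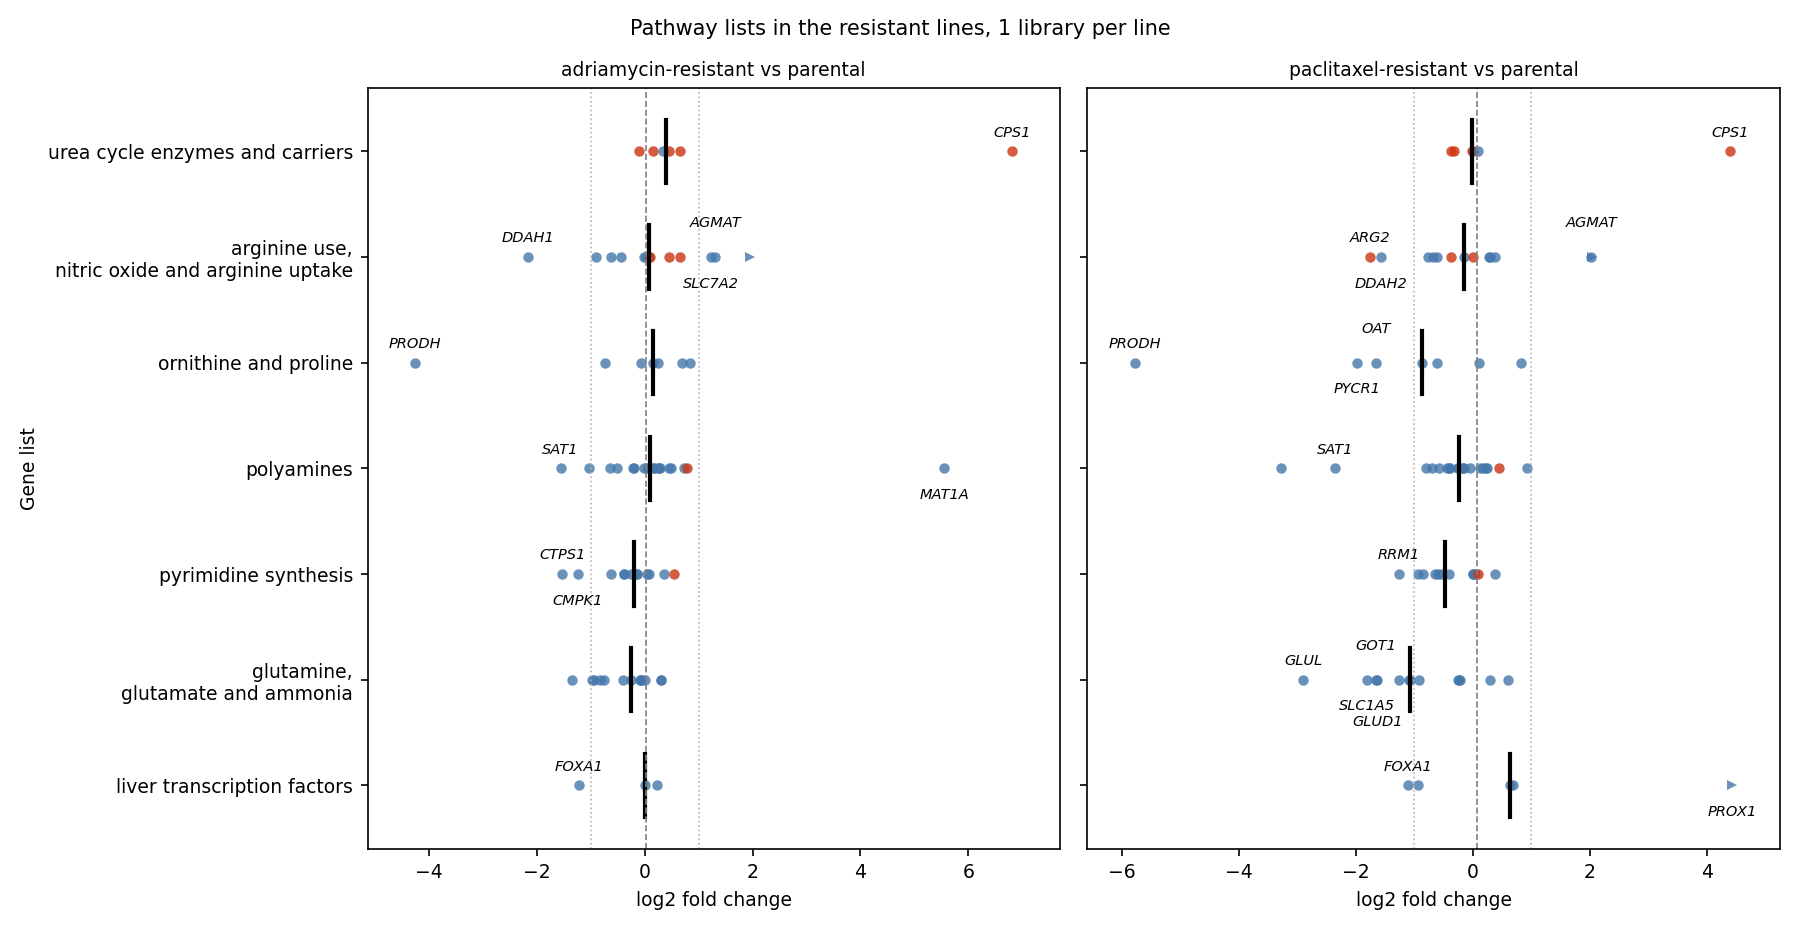
log2 fold change of each gene of 7 lists in adriamycin-resistant (left) and paclitaxel-resistant (right) against parental cells, with 1 point per gene compared, members in red, other genes in blue, triangles for bounds against 3 counts, a black bar at the list's median, a dashed line at the median of all genes compared and dotted lines at -1 and 1 (the axes of the panels span different ranges). CPS1 is the far point of the urea cycle list in both panels, and the glutamine list has its median at -1.07 on the right and -0.25 on the left.

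Transcription factors of liver were examined because CPS1 is a liver enzyme. Of 12 such genes, 6 had 0 counts in all 3 libraries, FOXA2 and ONECUT1 among them, and HNF4A had 2 counts in adriamycin-resistant cells alone. Others were expressed. In parental, adriamycin-resistant and paclitaxel-resistant cells CEBPA stood at 9.97, 11.6 and 15.5 CPM and CEBPB at 55.2, 55.4 and 28.9 CPM. Both stayed under 2-fold in each comparison. Of the 12, 3 could be compared in adriamycin-resistant against parental cells, with 0 higher and 1 lower, beside 11.0% and 11.2% over all genes. In paclitaxel-resistant against parental cells 5 could be compared, with 1 higher and 1 lower, beside 20.5% and 13.5%. With so few genes nothing is read from these counts. FOXA1, a factor that breast epithelium also expresses, had 1044, 653 and 747 counts and was 2.34-fold lower in adriamycin-resistant (2.12 to 2.58) and 2.16-fold lower in paclitaxel-resistant cells (1.96 to 2.37). PROX1 had 0 counts in parental and adriamycin-resistant cells and 100 in paclitaxel-resistant cells, at least 21.6-fold higher than parental.

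Hepatocyte markers, taken as a sum, did not order the lines as CPS1 did. Of 13 markers, 10 had 0 counts in parental, 11 in adriamycin-resistant and 8 in paclitaxel-resistant cells. ALB, the defining marker, had 6, 0 and 7 counts, and APOA1 and TTR had 0 in every library. The summed level of the 13 markers was 1.50, 0.639 and 6.72 TPM, lowest in the line with the most CPS1. In paclitaxel-resistant cells both this sum and CPS1 were above the parental level. The sums rested mostly on TF, at 1.27 TPM in parental and 0.614 in adriamycin-resistant cells, or on SERPINA1, at 5.83 TPM in paclitaxel-resistant cells. SERPINA1 had 334 counts in paclitaxel-resistant cells against 0 in parental and 2 in adriamycin-resistant cells. Of 11 enterocyte markers, another cell type that expresses CPS1, 9 had 0 counts in each library, with summed levels from 0.219 to 0.831 TPM. Markers of fibroblasts, endothelium and blood summed to 8.44, 13.8 and 8.75 TPM, with COL1A1 the highest, and the 10 breast epithelial markers to between 10357 and 11139 TPM.

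Of the protein-coding neighbours of CPS1 on chromosome 2, LANCL1 and ERBB4 shared part of its pattern, and none shared all of it. LANCL1, which lies just before CPS1 in the RefSeq gene table, stood at 58.2 CPM in parental, 110 in adriamycin-resistant and 40.4 in paclitaxel-resistant cells, 1.90-fold the parental level in adriamycin-resistant (1.80 to 2.00) and 0.695-fold in paclitaxel-resistant cells (0.652 to 0.742). Between the resistant lines LANCL1 was 2.73-fold higher in adriamycin-resistant cells (2.59 to 2.88), the same direction as CPS1. MYL1 and ACADL, before LANCL1, had 0 counts in every library. ERBB4, the next gene after CPS1, had 0 counts in parental, 53 in adriamycin-resistant and 523 in paclitaxel-resistant cells, so it was higher in both resistant lines but in the opposite order to CPS1, at least 12.1-fold and at least 113-fold. Of the genes beyond it, IKZF2 was 2.46-fold lower in adriamycin-resistant cells (2.25 to 2.69), and SPAG16 stayed under 2-fold in each comparison.

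Genes were ranked by how near their pattern over the 3 libraries lay to that of CPS1, as the Euclidean distance between centred log2 CPM values, among 12345 other protein-coding genes with 100 or more counts in a library. Among the nearest were PCDHA1, UGT1A6, COL26A1 and HTR7, at distances of 0.94, 1.00, 1.19 and 1.22. In parental, adriamycin-resistant and paclitaxel-resistant cells UGT1A6 had 50, 3602 and 1691 counts, and PCDHA1 had 2, 142 and 35. COL26A1 had 3, 243 and 152 counts and HTR7 6, 489 and 315. With so few parental counts, the distances of PCDHA1, COL26A1 and HTR7 are uncertain. Adriamycin-resistant cells were above paclitaxel-resistant cells 4.26-fold for PCDHA1, 2.24-fold for UGT1A6, 1.68-fold for COL26A1 and 1.64-fold for HTR7, beside 5.34-fold for CPS1. PCDHA1 and UGT1A6 share exons with other genes of their clusters, so their counts are uncertain. A pattern over 3 libraries has few degrees of freedom, and many genes can lie near it.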

How the data were processed

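RNA-seq was performed on parental, adriamycin-resistant and paclitaxel-resistant MM468 cells, with 1 library per line, grouped by sample title. Per the labels, libraries were made with a TruSeq stranded kit, and the submitters' processing notes name Trimmomatic 0.39, HISAT2 2.2.1, StringTie 2.2.1 and GRCh38, without their roles. The strand setting and annotation release are not given in the sources used here. The authors deposited 1 table of whole-number read counts per gene, not normalized, beside FPKM and TPM values they computed.

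Counts were scaled with TMM factors over the 3 libraries (edgeR 4.0.16 in R 4.3.3). Log2 fold changes used a prior count of 0.125, and a gene was compared when 1 of the 2 libraries had 10 or more counts. Without replicates, no model of the spread could be fitted, edgeR's quasi-likelihood test included, and no p-value is given. For a gene at 0 counts in 1 library, the fold change is a lower bound, taken from 3 counts in that library. The scaling, fold changes and intervals were tested on simulated data with counting error alone and few changed genes, all picked among well-counted ones. That simulation does not cover low counts, such as those of CPS1 in parental cells, or a change in many genes. Depth limits genes near 0 counts, and intervals cover counting error only.

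Alternatives were a prior count of 2, library size only, TMM on 2 libraries, size factors of DESeq2 1.42.0, no minimum or 100 counts, a 4-fold threshold, FPKM with a pseudocount of 1, and TPM with 1 or 0.1. The members and lists were chosen with earlier results of these data known. Beside the members, the text names list genes with 100 or more counts and a 2-fold change in a comparison (at most 4 a list), OTC and NOS genes, the 3 neighbours of CPS1 on each side, and the genes nearest to its pattern. Some items that this rule names are not reported here. MAT2A, SLC25A13, CEBPA, CEBPB, GLS2, GLUD2, SLC25A12, markers and low-count genes named within counts lie outside this rule. They were chosen after their values were seen. Promoter windows and neighbours come from RefSeq (GRCh38.p14), and figures from matplotlib 3.10.9.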

Additional observations from a re-analysis of the deposited data

Results flagged for a closer look

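In 4 genes the resistant lines lay on opposite sides of the parental line, with both counting intervals excluding no change. The difference between the lines was not tested, since there is 1 library per line. ASS1 had a log2 fold change over parental cells of 0.46 in adriamycin-resistant and -0.38 in paclitaxel-resistant cells, both under 2-fold. With TMM factors PYCR1 had 0.25 and -1.98, SLC7A2 1.23 and -0.69, and DDAH1 -2.17 and 0.30, in adriamycin-resistant and paclitaxel-resistant cells.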

How the results depend on the processing

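No paired analysis was possible because each line has a single library. The log2 fold change of CPS1 in adriamycin-resistant over parental cells was 6.81. It was 2.39 from FPKM and 3.38 from TPM, each with a pseudocount of 1, and 5.84 with TPM and 0.1, since a pseudocount raises the low parental value. Of the members, the 4-fold threshold left 1 higher in adriamycin-resistant against paclitaxel-resistant cells and 0 lower in paclitaxel-resistant against parental cells, where FPKM left 0 higher.

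Over the 7 lists together, 73 genes were compared in adriamycin-resistant against parental cells. Of these, 5 were higher and 8 lower, beside 11.0% and 11.2% over all genes. The higher genes were 8 without a minimum, 3 with a minimum of 100 counts or a 4-fold threshold, and 2 from FPKM or TPM with a pseudocount of 1, and the 4-fold threshold left 2 lower. The share higher over all genes moved as well. It was 18.0% without a minimum, 6.28% with 100 counts, 4.90% at 4-fold, 2.56% from FPKM and 3.94% from that TPM. At 4-fold 3.96% were lower. In paclitaxel-resistant against parental cells 4 of 74 were higher and 16 lower, beside 20.5% and 13.5% over all genes. From FPKM 0 were higher and 10 lower, beside 7.19% and 4.62%. At 4-fold 4 were lower, beside 4.57%. Between the resistant lines 14 of 75 were higher and 7 lower, beside 13.3% and 20.0% over all genes. At 4-fold 4 and 3 were left, beside 4.22% and 9.23%, and from FPKM 8 and 3, beside 4.04% and 6.90%. TPM with a pseudocount of 1 gave 8 higher, beside 4.51%, and a minimum of 100 counts gave 4 lower, beside 11.8%.

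The other fold changes of the members gave 161 values. The counting interval held 101 of them and not the other 60, and 0 turned a called direction. The sign differed in 17, all of members under 2-fold (ASL, NAGS, ODC1 and SLC25A15). With TPM and a pseudocount of 0.1, the share of higher genes among all genes changed between paclitaxel-resistant and parental cells was 75.5%, and 21.8% between adriamycin-resistant and paclitaxel-resistant cells.

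Over all genes, 1981 were higher and 2019 lower in adriamycin-resistant against parental cells, and these became 4283 and 3822 without a minimum, 825 and 1030 with a minimum of 100 counts, 880 and 711 at 4-fold, 460 and 663 from FPKM, and 707 and 1085 from TPM with a pseudocount of 1. For paclitaxel-resistant against parental cells, 3924 and 2569 became 6952 and 4033, 1584 and 1728, 1998 and 872, 1374 and 882, and 2607 and 1055 in that order, with 1580 lower from TPM with 0.1. For adriamycin-resistant against paclitaxel-resistant cells, 2562 and 3864 became 4112 and 6645, 1720 and 1632, 815 and 1783, 781 and 1334, and 871 and 2850, with 1446 higher from TPM with 0.1.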
